A study of Homo sapiens with 6 samples.

Results

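The genes described here are 10 regulators of epithelial cell identity, namely the ETS factors ELF3, ELF5 and EHF, the Grainyhead factors GRHL1, GRHL2 and GRHL3, the zinc finger factors OVOL1 and OVOL2, and the splicing regulators ESRP1 and ESRP2. The rule takes them by gene name and uses no measured value, and every spot that the array assigns to them was used. The 10 genes were, however, chosen with earlier results of these data known. These 10 genes are represented by 13 of the 34127 probes on the array, and they are 10 of 25940 named genes. A probe is a short stretch of DNA that captures the transcripts of 1 gene. Each of the genes had at least 1 probe that could be tested, and 12 of the 13 probes were tested. For 9 genes the probe used was well above background on all 6 arrays, and ELF5 passed through pLUM alone.

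RNA was measured in pLUM and pLB cells, a pair of lines derived from the T47D human luminal breast cancer line through T47Dco tumors grown in ovariectomized NSG mice. pLUM (pure luminal) cells came from a tumor grown with estradiol (E), were sorted as CLD3+ CD49f-, and received 1 nM E for 72 h before harvest. pLB (pure luminobasal) cells came from a tumor grown with E plus progesterone, were sorted as CLD3- CD49f+, and were kept without estrogen (estrogen-withdrawn, EWD). Each line was profiled in 3 sorts, with 1 single-dye Agilent array per sort, giving 6 arrays. Each line derives from 1 tumor, so that line, tumor of origin and hormone treatment cannot be told apart, and p-values measure the spread between sorts of a line. The cells were also stained for CK5 and sorted on it, and the labels do not name the fraction that was hybridized.

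ELF3, ELF5 and EHF are epithelium-restricted members of the ETS family, whose shared DNA-binding domain recognizes a GGAA core. ELF5 drives alveolar luminal differentiation and milk gene expression in the mammary gland. Grainyhead factors activate genes of cell junctions and of the epidermal barrier, and GRHL2 and the OVOL factors hold epithelial cells in that state by repressing ZEB1 and related mesenchymal regulators. The ESRP proteins impose epithelial splicing on transcripts such as FGFR2, CD44 and CTNND1.

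The arrays were alike within a line. Pearson's r across tested probes, which are not independent replicates, was 0.984 to 0.991 between pLUM arrays, 0.972 to 0.989 between pLB arrays and 0.780 to 0.806 between lines. The 3 pLUM arrays and pLB replicate 1 were on slide 1, and pLB replicates 2 and 3 were on slide 2. All 8 luminal markers were measurable in both lines. Their summed linear signal was 359 to 394 times the 75th percentile in pLUM and 113 to 118 times in pLB. Of the 8, 6 were called lower in pLB, whereas EPCAM was called higher. KRT8, lower by its representative probe, had 2 probes called lower and 1 called higher. All 6 basal markers were called higher in pLB, where they summed to 82.3 to 116, against 1.04 to 1.28 in pLUM, and no pLUM array had KRT5 or KRT14 well above background. Of the fibroblast markers, COL1A2 alone was called higher in pLB, whereas PDGFRB, LUM and COL3A1 were not well above background on any array. COL1A1 was well above background on every array of both lines and was not called (log2 difference -0.56, limma, adjusted p = 0.124). The list summed to 0.741 to 0.960 in pLUM and 0.777 to 1.13 in pLB. The endothelial and immune lists summed to at most 0.507 on each array, and 1 gene of each was called higher in pLB. The part of these other cell type markers, and of the luminal and basal markers, in the results was not tested.

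Signals are given as log2 relative to the 75th percentile of the array, so that 0 is the 75th percentile itself. A probe was tested if it was well above background, a flag set by the scanner software, on at least 3 of 6 arrays. Differences were fitted with limma over 23103 probes and adjusted by the Benjamini-Hochberg method, and a gene was called when the lines differed at least 2-fold with an adjusted p under 0.05. Values listed for a line are those of replicates 1, 2 and 3 in that order. A gene with several probes was represented by that with the highest mean signal. Levels of different probes are not comparable, since probes differ in how strongly they bind. Precision is limited by having 3 arrays a line, for which the smallest two-sided p of an exact permutation test is 0.1.

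Of the 10 genes, 7 were called lower in pLB (ELF3, ELF5, EHF, GRHL1, GRHL2, OVOL2 and ESRP2), 1 was called higher (GRHL3), and OVOL1 and ESRP1 were not called. Among all 17668 genes tested, 23% were called lower and 22.7% higher, 45.7% in all. Of the 12 tested probes of these genes 8 were called lower and 1 higher, against 23.7% and 21.9% of all tested probes. The median log2 difference of the 10 genes was -1.44, both as fitted and with ELF5 at its lower bound, against 0.03 over all genes tested. The arrays of the lines did not overlap for 8 of the 10 genes, against 68.2% of all tested probes, 33.9% with pLB below pLUM and 34.3% with pLB above. Line differences of this kind were thus common on the array. Since the 10 genes were chosen with earlier results of these data known, these shares describe them and test nothing.

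**Figure D1:**
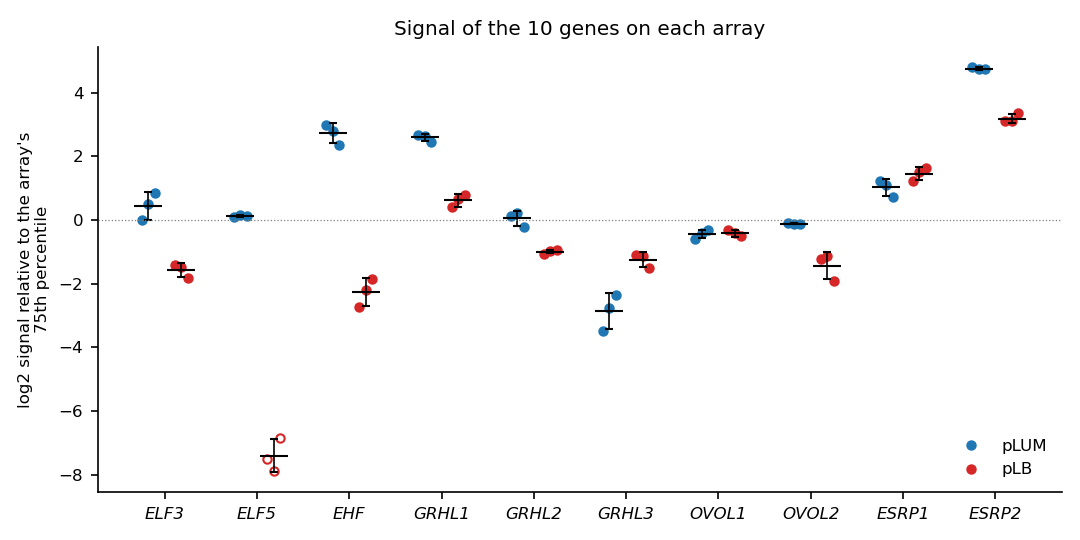
Signal of the representative probe of each gene on each array, as log2 relative to the array's 75th percentile, with 3 pLUM arrays in blue and 3 pLB arrays in red. Horizontal bars and whiskers are the mean and SD of 3 arrays, and open circles mark a line in which the probe was not well above background on any array, which holds only for ELF5 in pLB.

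Among the 10 genes, ELF5 and EHF had the largest decreases. ELF5 was at 0.09, 0.16 and 0.13 in pLUM and at -7.50, -7.87 and -6.86 in pLB. No pLB signal was well above background, so that the fold is given as a bound. Means were 0.13 ± 0.03 for pLUM and -7.41 ± 0.51 for pLB (SD, n = 3 each). The fitted difference between them had an adjusted p of 1.15e-06 (limma). As a bound, ELF5 was at least 42.9-fold lower in pLB. For this bound, each pLB array was set to its lowest signal well above background, or to the ELF5 signal where that was higher.

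EHF, which lies next to ELF5 on chromosome 11, was bright in pLUM and still measurable in pLB. Its signals were 2.99, 2.81 and 2.37 in pLUM and -2.73, -2.20 and -1.85 in pLB. Every pLB array was thus far below every pLUM array. The fitted log2 difference was -4.99 (standard error 0.28, limma, adjusted p = 7.74e-06), or 31.7-fold.

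ELF3 was reduced less than its relatives and was well above background on all arrays. It was at 0.00, 0.49 and 0.84 in pLUM and at -1.41, -1.46 and -1.82 in pLB, without overlap. ELF3 was 4.01-fold lower in pLB (95% confidence interval of the log2 difference -2.60 to -1.41, limma, adjusted p = 0.000371). The within-array log2 ratio of EHF to ELF3 was at least 1.53 on every pLUM array and at most -0.03 on every pLB array, and it decreased by 2.98 on the log2 scale (exact permutation p = 0.1, two-sided, the smallest that 3 arrays against 3 allow).

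Within slide 1, where pLB is represented by replicate 1 only, the log2 difference was -5.46 for EHF and -1.85 for ELF3, and ELF5 was not well above background on that pLB array. Under normexp background correction the bound for ELF5 was 3.33 on the log2 scale, against 5.42 with the processed signal, and EHF and ELF3 were lower by 4.35 and 1.73 on the log2 scale.

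ELF5 and EHF are neighbours, and their probes lie 181.1 kb apart. The ELF5 probe, for NM_198381, is at chr11:34500743-34500797 on the minus strand of hg19, the build of the files, and the EHF probe, for NM_012153, at chr11:34681911-34681970 on the plus strand. The ELF3 probe, for NM_004433, is on another chromosome, at chr1:201984429-201984488. Within 1000 kb of the ELF5 probe 15 genes were tested, and this window was chosen after the values were seen. Of these, with ELF5 and EHF included, 3 were called lower and 3 higher in pLB, against 23% and 22.7% of all genes tested. Apart from ELF5 and EHF, the gene called lower was SLC1A2, 772.3 kb away, with no pLB array well above background. Those called higher were LMO2 (log2 difference 6.61), PAMR1 (4.73) and NAT10 (1.47). CAT, the catalase gene 7.7 kb from the ELF5 probe, differed by -0.47 (limma, adjusted p = 0.0899) and APIP, on the far side of EHF, by 0.14 (limma, adjusted p = 0.463), and neither was called.

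**Figure D2:**
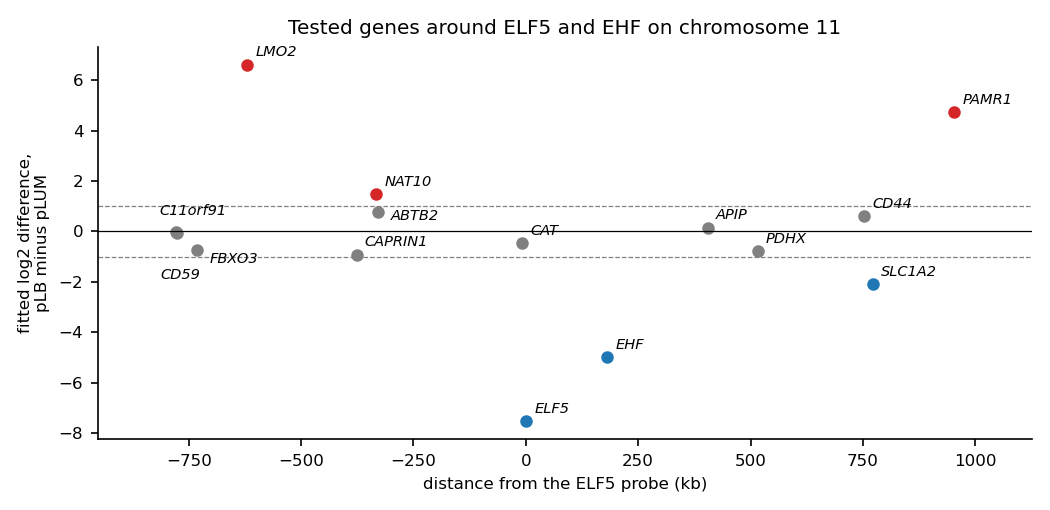
Fitted log2 difference of pLB minus pLUM for the 15 tested genes within 1000 kb of the ELF5 probe, against distance from that probe in kb. Blue points were called lower in pLB, red points higher and grey points were not called, and dashed lines mark a 2-fold difference. The points of ELF5 and SLC1A2, not well above background in pLB, are fitted values. CAT and APIP, on either side of ELF5 and EHF, are grey.

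The bases before the annotated starts are shown for the ETS factors and for GRHL3, because ELF5 and EHF had the largest decreases and GRHL3 was the 1 gene called higher. They are from RefSeq on GRCh38.p14, 250 bases upstream of each start, read 5′ to 3′ along the strand of the gene. EHF has 2 annotated starts in this table, and of the 2 for GRHL3 the upstream start is shown. Capitals mark CAGGTG or its reverse complement CACCTG, the E-box letters that ZEB and SNAI proteins can bind.
ELF5, chr11:34511725-34511974, minus strand: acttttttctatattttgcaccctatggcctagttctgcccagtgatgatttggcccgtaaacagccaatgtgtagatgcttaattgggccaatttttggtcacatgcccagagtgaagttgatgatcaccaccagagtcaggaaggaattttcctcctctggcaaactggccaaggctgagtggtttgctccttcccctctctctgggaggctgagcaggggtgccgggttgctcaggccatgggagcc
EHF upstream start, chr11:34624007-34624256, plus strand: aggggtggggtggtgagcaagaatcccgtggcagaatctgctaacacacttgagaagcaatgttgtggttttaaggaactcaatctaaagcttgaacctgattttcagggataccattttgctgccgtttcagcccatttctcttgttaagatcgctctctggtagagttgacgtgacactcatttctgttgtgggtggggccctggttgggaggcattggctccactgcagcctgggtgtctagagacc
EHF downstream start, chr11:34632316-34632565, plus strand: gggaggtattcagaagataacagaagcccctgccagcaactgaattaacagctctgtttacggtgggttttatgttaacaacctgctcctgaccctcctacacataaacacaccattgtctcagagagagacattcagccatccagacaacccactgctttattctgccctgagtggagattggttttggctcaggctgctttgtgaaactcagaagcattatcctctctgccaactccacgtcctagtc
ELF3, chr1:202010337-202010586, plus strand: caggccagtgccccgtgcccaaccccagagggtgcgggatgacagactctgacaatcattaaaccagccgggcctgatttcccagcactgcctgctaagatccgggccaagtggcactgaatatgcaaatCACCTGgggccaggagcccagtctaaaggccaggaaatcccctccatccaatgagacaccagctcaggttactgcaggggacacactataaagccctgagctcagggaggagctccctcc
GRHL3, chr1:24319107-24319356, plus strand: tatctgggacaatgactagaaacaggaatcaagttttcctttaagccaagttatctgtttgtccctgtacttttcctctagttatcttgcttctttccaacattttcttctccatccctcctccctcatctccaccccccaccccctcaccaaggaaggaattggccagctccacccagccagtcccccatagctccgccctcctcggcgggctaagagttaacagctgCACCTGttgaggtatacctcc
The table held windows for 5 of the 10 genes, 7 windows in all with GRHL1. Of these, 2 held the E-box letters, whereas 17.5% of the 35116 windows in the table held them. The letters began 120 bases before the start for ELF3 and 21 bases before the upstream start for GRHL3. The window of the downstream GRHL3 start, not shown, held none. The starts were not matched to the transcripts of the probes. None of the 7 windows held AACCGGTT (the Grainyhead consensus, in 0.117% of all windows), CCGGAAGT (an ETS consensus, in 3.42%) or GGTCA followed by any 3 bases and TGACC (the estrogen response element, in 0.0399%), each searched on both strands. These matches describe letters and not binding, and the windows are too short to hold distant control regions.

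The Grainyhead factors moved in opposite directions. GRHL1, an activator of desmosomal and epidermal genes, was at 2.68, 2.66 and 2.46 in pLUM and at 0.41, 0.66 and 0.80 in pLB. The lines were well separated, and GRHL1 was 3.93-fold lower in pLB (log2 difference -1.97, standard error 0.17, limma, adjusted p = 6.71e-05). Its representative probe, for NM_198182, lies at chr2:10142232-10142291. A dimmer probe for the same transcript, at chr2:10132177-10132236, was also called lower, by 2.56-fold (limma, adjusted p = 0.00526), but not under normexp, where it was lower by 0.97 on the log2 scale.

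GRHL2, which maintains CDH1 and CLDN4 expression, was at the 2-fold limit. Its signals were 0.14, 0.24 and -0.21 in pLUM and -1.05, -0.96 and -0.95 in pLB, so that the arrays did not overlap. The log2 difference was -1.04 (95% confidence interval -1.46 to -0.63, limma, adjusted p = 0.00167), or 2.06-fold lower in pLB. A second, dimmer GRHL2 probe gave -0.61 (limma, adjusted p = 0.0207), 1.53-fold, and was not called. The call for GRHL2 was also lost under normexp (-0.90), with the mean of its probes (-0.83), with spike-in scaling (-0.77) and without pLUM replicate 2 (-0.95). The direction was the same under every one of these.

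GRHL3, the member most tied to the epidermal barrier, was the gene called higher in pLB. It was at -3.47, -2.76 and -2.36 in pLUM and at -1.09, -1.14 and -1.52 in pLB. All pLB arrays exceeded all pLUM arrays, although the pLUM arrays were spread widely (SD 0.56). The log2 difference was 1.61 (95% confidence interval 0.91 to 2.32, limma, adjusted p = 0.00261), or 3.06-fold. With normexp it was 0.75 and was not called, whereas within slide 1 it was 1.77. The called probe, for transcript variant NM_198173, is at chr1:24681534-24681593. The other GRHL3 probe, for NM_198174 at chr1:24690909-24690968, was not well above background on any array, with signals from -7.46 to -6.15, and was not tested. The within-array log2 ratio of GRHL3 to GRHL1 lay between -6.15 and -4.82 in pLUM and between -2.32 and -1.50 in pLB, a shift of 3.59 (exact permutation p = 0.1, two-sided).

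The OVOL genes, encoding zinc finger repressors of the mesenchymal state, were measured by 1 probe each. OVOL2 was at -0.09, -0.12 and -0.13 in pLUM and at -1.23, -1.14 and -1.92 in pLB. It was 2.49-fold lower in pLB (log2 difference -1.32, standard error 0.23, limma, adjusted p = 0.002). The pLUM arrays were almost equal (SD 0.02), and the pLB arrays were not (SD 0.42), with replicate 3 the lowest. With spike-in scaling the difference was -1.05 and was not called.

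For OVOL1 the lines differed by less than the spread of the arrays. Its values were -0.58, -0.40 and -0.32 in pLUM and -0.31, -0.42 and -0.52 in pLB, which overlap. The log2 difference was 0.02 (95% confidence interval -0.36 to 0.40, limma, adjusted p = 0.915), an interval that lies inside a 2-fold change in either direction. Its sign changed between alternatives, from -0.05 to 0.29, none of them called. The within-array ratio of OVOL2 to OVOL1 fell by 1.34 on the log2 scale from pLUM to pLB (exact permutation p = 0.1, two-sided). The OVOL1 probe is at chr11:65564519-65564578 and the OVOL2 probe at chr20:18005019-18005078.

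The ESRP paralogs, which share their splicing targets, were unequal. ESRP2 was at 4.80, 4.74 and 4.75 in pLUM and at 3.11, 3.11 and 3.35 in pLB. It was 2.97-fold lower in pLB (log2 difference -1.57, 95% confidence interval -1.94 to -1.20, limma, adjusted p = 0.000118). ESRP2 had 10 spots per array, of which 1 spot on pLB replicate 2 was left out as an outlier. The SD over single spots within an array was 0.03 to 0.05. Between array means, each averaged over the spots, the SD was 0.14 in pLB and 0.035 in pLUM. An SD of means is not directly comparable with an SD of single spots. The ESRP2 probe lies at chr16:68263054-68263113 on the minus strand.

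ESRP1 was at 1.24, 1.11 and 0.73 in pLUM and at 1.23, 1.51 and 1.65 in pLB. The arrays overlapped, since pLB replicate 1 was below pLUM replicate 1. The log2 difference was 0.44 (95% confidence interval -0.04 to 0.92, limma, adjusted p = 0.0994), so that a decrease of the size seen for ESRP2 lies outside the interval. The within-array log2 ratio of ESRP2 to ESRP1 ranged from 3.57 to 4.02 in pLUM and from 1.60 to 1.88 in pLB. This was a shift of -2.01 (exact permutation p = 0.1, two-sided). The 4 ratios between members given here were chosen after the values were seen, and the p adjusted over these 4 is also 0.1.

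**Figure D3:**
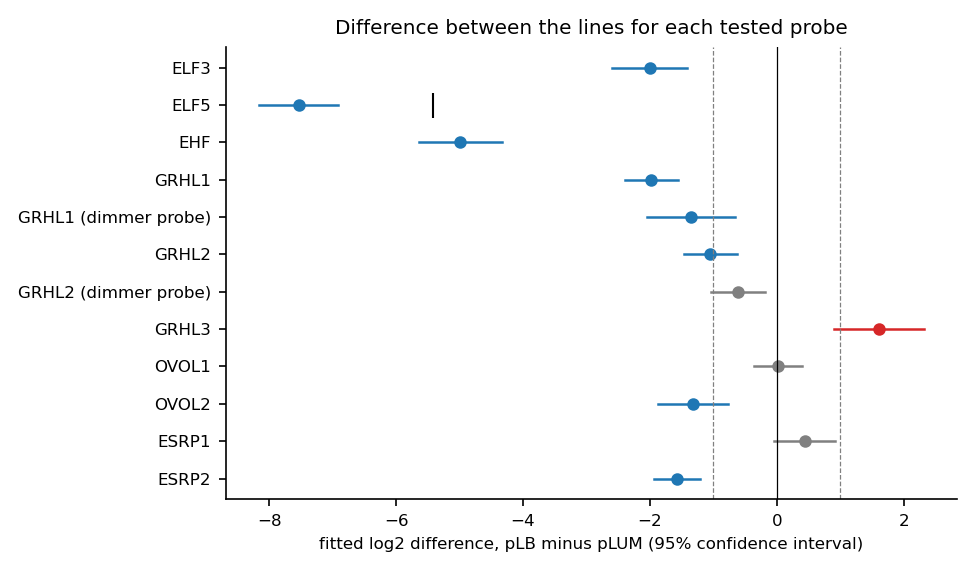
Fitted log2 difference of pLB minus pLUM for the 12 tested probes, with 95% confidence intervals from limma. Blue probes were called lower, red higher and grey were not called, dashed lines mark a 2-fold difference, and the black tick is the bound for ELF5, a decrease of at least 5.42 on the log2 scale, its point being a fitted value. The intervals of OVOL1 and ESRP1 include 0, and that of the dimmer GRHL2 probe does not.

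The remaining ETS family members were examined as a list. Of 25 genes 18 were tested, 6 were called higher and 3 lower in pLB, and the median log2 difference was 0.57. Over all genes tested, 22.7% were called higher and 23% lower. SPDEF, a further ETS factor restricted to epithelia, was 93.2-fold lower in pLB (log2 difference -6.54, limma, adjusted p = 1.96e-06), from 3.51 to 3.85 in pLUM down to -3.46 to -2.61 in pLB. GABPA, the ubiquitous activator of mitochondrial genes, was 2.91-fold and ELF2 2.50-fold lower. The PEA3 group factors ETV5 and ETV4 were at least 11.3-fold and 6.90-fold higher in pLB, and ETS2 at least 2.50-fold higher, the pLUM signals of these 3 all being too dim to stand well above background. Genes of this kind pass the filter only through the line in which they are bright. ELF1 was 2.27-fold higher by its representative probe but was called by 1 of 2 probes, and ELK4 was 1.84-fold higher and not called, although its other probe was. With normexp 2 genes of the list were called higher and 2 lower.

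Of the Grainyhead relatives, TFCP2L1 was called higher in pLB, by 3.30-fold (limma, adjusted p = 9.14e-05), and UBP1 lower, by 2.47-fold (limma, adjusted p = 0.000308). TFCP2 gave a log2 difference of 0.98, just under the 2-fold threshold. It was called higher without pLUM replicate 2 or pLB replicate 2, and also, among other settings, with quantile normalization and spike-in scaling. The array had no probe under the name OVOL3, so that gene was not analysed.

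Known targets of Grainyhead factors moved in both directions. Of 10 genes 9 were tested, 1 was called higher and 3 lower in pLB, with a median log2 difference of -0.00. For comparison, 22.7% of all genes tested were called higher and 23% lower, so that calls in both directions were common on the array. ERBB3 was lower by 2.68 on the log2 scale (limma, adjusted p = 0.000508), NECTIN4 (PVRL4 in the files) 2.68-fold lower, from 2 pLUM arrays since 1 spot was an outlier, and TGM1, a cross-linking enzyme of the cornified envelope, 2.03-fold lower. EPCAM was 2.14-fold higher (limma, adjusted p = 0.00422). CDH1, which encodes E-cadherin, differed by 0.30 (95% confidence interval -0.22 to 0.82) and CLDN4 by -0.00 (-0.37 to 0.37), and both intervals lie inside a 2-fold change. RAB25 and SPINT1 gave 0.32 and -0.00. With quantile normalization, and also without pLB replicate 2, 2 genes of the list were called lower and EPCAM was not called.

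Mesenchymal factors and markers opposed by the OVOL and Grainyhead factors were examined next. Of 9 genes 6 were tested, and 4 were called higher and 1 lower, SNAI2 passing the filter through pLB alone. The shares over all genes tested were 22.7% higher and 23% lower. Of the 3 genes well above background on all 6 arrays, 1 was called higher and 1 lower. CDH2, which encodes N-cadherin, was 149-fold higher (well above background on 1 of 3 pLUM arrays), SNAI2 at least 27.1-fold, VIM 7.89-fold (on 2 of 3) and ZEB1 4.71-fold higher. TWIST1 was 4.82-fold lower, and SNAI1 differed by -0.95 (limma, adjusted p = 0.0053), under the 2-fold threshold, but was called lower without pLUM replicate 1 or 2. ZEB2, TWIST2 and FN1 were not well above background on enough arrays. COL1A2, the fibroblast marker called higher in pLB, was at least 11.5-fold higher. Of the other fibroblast markers, COL1A1 was not called (log2 difference -0.56), and COL3A1, PDGFRB and LUM were not well above background on any array. With normexp 2 of the mesenchymal list were called higher and 1 lower.

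Transcripts spliced by the ESRP proteins were compared in total level, since exon choice was not measured here. Of 6 genes 1 was called higher and 1 lower, against 22.7% and 23% of all genes tested, and the median was -0.18. FGFR2 was 2.83-fold higher in pLB, called by each of 3 probes. CTNND1, which encodes p120 catenin, was 2.37-fold lower by its representative probe, called by 1 of 2 probes. ENAH was 1.79-fold lower and not called, although 2 of its 3 probes were. Without pLUM replicate 3, 2 genes of the list were called lower.

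Among other splicing regulators of the epithelial and mesenchymal states, 2 were called higher and 2 lower out of 7 genes tested. The shares over all genes tested were 22.7% and 23%. RBM47, an RNA-binding protein of epithelia, was 13.7-fold lower (limma, adjusted p = 1.72e-05) and SRSF1 5.55-fold lower in pLB. RBFOX2, which opposes the ESRP proteins on several exons, was 2.13-fold higher, and QKI 2.01-fold higher, the latter called by 1 of 2 probes. The count called higher was 0 with normexp. It was 1 without pLUM replicate 2 or pLB replicate 2, and also with median scaling, no filter on dim probes, the methods' t-test, the mean of the probes and the replicate block. It was 3 without pLB replicate 3 and within slide 1.

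Genes tied to ELF5 in the lactating gland were mostly dark on these arrays. Of 6 genes, 1 was tested, namely PRLR, the prolactin receptor, which passed the filter through pLUM alone. No pLB array was well above background for PRLR, and pLB was at least 104-fold lower. The adjusted p of 2.68e-05 (limma) is that of the fitted PRLR difference and not of this bound. CSN1S1, CSN2, CSN3, LALBA and STAT5A were not well above background on any array. Epidermal differentiation genes, downstream of GRHL3 and GRHL1 in skin, were tested for 7 of 9 members. Of these, 5 were called higher and 1 lower in pLB, against 22.7% and 23% of all genes tested. SPRR1B was 156-fold higher. SPRR2A was 61.0-fold and IVL 3.93-fold higher, with 1 and 2 of 3 pLUM arrays well above background. CDSN, encoding a desmosomal glycoprotein of the cornified layer, was 115-fold lower and was well above background on 1 of 3 pLB arrays. With normexp 3 of the list were called higher and 1 lower, and 2 genes could be tested, both called higher, where all 6 arrays had to pass.

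**Figure D4:**
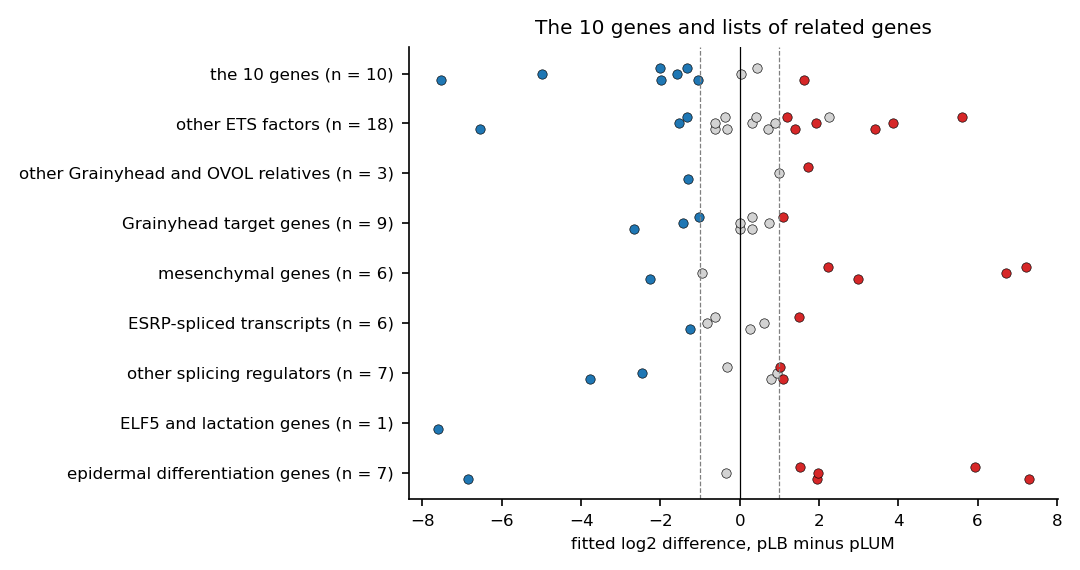
Fitted log2 difference of pLB minus pLUM for each tested gene of the 10 genes and of 8 related lists, 1 point per gene, offset vertically for visibility. Blue points were called lower in pLB, red higher and grey were not called, and dashed lines mark a 2-fold difference. Points of genes not well above background in a line are fitted values and not bounds. The 10 genes lie mostly to the left, the mesenchymal and epidermal lists mostly to the right.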

How the data were processed

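RNA from 3 sorts each of pLUM and pLB cells was measured on 1-colour arrays. The authors deposited Agilent Feature Extraction 10.10.1.1 output, an intensity per spot corrected for background and detrended within its array, with no normalization between arrays; the well above background, saturation and outlier flags are scores of other kinds read from the same files. Positions are on hg19.

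From the deposited intensities, log2 values minus each array's 75th percentile were computed without control spots and feature outliers (296 to 387 per array), and spots of a probe were averaged. No gene spot was saturated. A probe with several spots counted as well above background by their majority, which held for 21280 to 22772 probes per array. limma 3.58.1 in R 4.3.3 compared the lines over 23103 probes. The t-test of the methods was an alternative. Old gene names were updated through RefSeq transcripts (118 of 119 names looked up were matched). Replicate numbers were not used as pairs, since deviations of same-numbered arrays correlated at -0.265 to -0.095.

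Named genes are the 10 members, list genes with the 3 largest called differences in each direction or with only some probes called, and the 2 genes nearest to each member in profile. Other genes named from the lists (among them CDH1, CLDN4, RAB25, SPINT1, TFCP2, SNAI1, ZEB1 and ELK3), the marker genes and the neighbours of ELF5 were chosen after their values were seen. The members and lists were chosen with earlier results of these data known.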

Additional observations from a re-analysis of the deposited data

How the results depend on the processing

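Each result was recomputed under 21 alternatives of background correction, scaling, filter, threshold, test, probe rule, block and left-out array. No difference of the 10 genes reversed where called, and of 209 values 203 kept their call. Part of this was fixed in advance. The alternatives of filter, threshold, test and replicate block left the differences unchanged, apart from ELF5 in the signal floor and all-array filter. Dropping the fold threshold or the adjustment could not remove a call. GRHL2 lost its call with normexp (-0.90), spike-in scaling (-0.77), the mean of its probes (-0.83) and without pLUM replicate 2 (-0.95), GRHL3 with normexp (0.75) and OVOL2 with spike-in scaling (-1.05). With normexp 0 members and 0 member probes were called higher by limma, and 4 other ETS factors, 3 mesenchymal genes and 2 splicing regulators were called. Calls fell over all genes too, to 14.6% higher and 17.6% lower with normexp, from 22.7% and 23%. Normexp moved the median of all genes by -0.24 and spike-in scaling by 0.27. Of called genes, 60.6% were higher in pLB with spike-in scaling, against 49.6%. With the filter requiring all 6 arrays, fewer genes were tested, and ELF5 had no value. Then 5 other ETS factors, 2 mesenchymal, 0 lactation (none was then tested) and 2 epidermal genes were called. Under this filter 20.6% of all genes tested were called higher and 20.6% lower. Of the Grainyhead targets 2 were called with quantile normalization and 2 without pLB replicate 2. Of the transcripts spliced by ESRP proteins 1 was called with spike-in scaling and 5 without a fold threshold. The cause of these changes was not tested, other than the smaller numbers tested.

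With the replicate block, the counts of members called stayed at 1 higher and 7 lower, the other splicing regulators called higher went from 2 to 1, and no other count of calls moved by over 1.5 times. Same-numbered arrays share only a number.

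With each array left out in turn, GRHL2 ranged from -1.18 to -0.95 and the Grainyhead targets called from 2 to 4.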

Other observations

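Over the 6 arrays, the genes whose centred log2 profile was nearest to that of a member were found by the root mean square difference from it. With 6 arrays in 2 lines this measure reflects mainly the size of the difference between the lines. Nearest to ELF5 were DNALI1 (0.08) and RBM24 (0.14), and nearest to EHF were CAPS2 (0.10) and ZNF833P (0.14). GRHL1 was nearest to GSAP, named PION in the files (0.03), and to STEAP2 (0.05), ESRP2 to RHOBTB3 (0.04) and PTPN21 (0.04), and GRHL3 to GTF2E2 (0.06) and PLP2 (0.11). For ELF3 the nearest were FAM219B, named C15orf17 in the files (0.10), and REPIN1 (0.11). For GRHL2 they were PPP2R3C (0.03) and MTMR12 (0.05), for OVOL2 UBR3 and UBE3A (0.08 each), for OVOL1 FDPS (0.02) and CAMKK2 (0.03), and for ESRP1 MRPL32 (0.04) and OR3A4P (0.05).

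ELK3, an ETS factor that was not called, had 1 array apart from the others of its line. Its signal was -1.59 on pLUM replicate 1, against -6.26 and -6.12 on pLUM replicates 2 and 3, and -2.48 to -2.30 on the pLB arrays.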
